A study of Mus musculus with 6 samples.

Results

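The genes described here are 35 genes of the unfolded protein response and the integrated stress response, taken as a named list of symbols. The deposited count table lists 34 of the 35 among its 11881 genes, and all 34 had enough counts to be tested. The expression of Trib3, a pseudokinase gene switched on late in the integrated stress response, was not analysed here, and only its promoter was read. RNA was sequenced from CD11b-positive, CD45-low microglia, the macrophages that reside in brain tissue, which had been sorted from hippocampi of male mice aged 17 to 21 days after birth. One group of 3 libraries is labelled wild type (WT), and the other group of 3 is labelled Mll5+/-, heterozygous for Mll5 (also called Kmt2e, a gene of the MLL family). No other allele or agent is named for either group, and all cells had passed the same sort. Titles carry a separate number for each library, which was taken to be 1 mouse. The labels do not say which part of Mll5 is disrupted or name a cell type to which the disruption is restricted. Since mRNA of the sorted cells was amplified by the SMART-seq method, counts follow amplified molecules.

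Proteins that enter the endoplasmic reticulum (ER) are folded there by chaperones, by lectins that bind their sugar chains and by enzymes that form disulfide bonds. When unfolded proteins build up, 3 sensors in the ER membrane respond. PERK, encoded by Eif2ak3, slows translation by phosphorylating eIF2. IRE1, encoded by Ern1, splices the mRNA of Xbp1. ATF6, encoded by Atf6, is cut to release a transcription factor. The transcription factors that follow raise chaperones and the machinery that returns misfolded proteins to the cytosol for degradation. Phosphorylation of eIF2 also follows amino acid shortage and heme shortage, through other kinases, and all these inputs meet at the transcription factor ATF4. Microglia make many secreted and membrane proteins and so carry a large folding load. Much of this control acts through splicing, cleavage and phosphorylation, none of which a count per gene can show.

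Libraries held between 21075570 and 29730400 counts, and levels are given as CPM, the counts of a gene scaled to a common library size after TMM scaling. At these depths, 3 counts correspond to between 0.104 and 0.142 CPM. Kmt2e itself was at 479.5, 378 and 688 CPM in the labelled WT libraries against 648, 298 and 513 CPM in the labelled Mll5+/- libraries, so the count over the whole gene did not show a lost copy and genotypes are given as labelled. Microglial markers were abundant in all libraries. The summed level of the 12 microglia markers ran from 10341 to 14630.0 CPM in labelled WT and from 8037 to 9229 CPM in labelled Mll5+/-. Without P2ry12, the remaining 11 summed to between 8211 and 9131 CPM and to between 6951 and 7997 CPM, again without overlap. Of the 12, P2ry12 and Gpr34 were lower in all 3 labelled Mll5+/- libraries and Tmem119 was higher in all 3. Summed markers of neurons (5 of 13 listed), astrocytes (9 of 13), border macrophages and monocytes (8 of 12), endothelial and mural cells (4 of 8) and of tissue dissociation (12 of 17) overlapped. The astrocyte sum was mostly Slc1a3 (240 to 493 CPM). Gja1 was at 22.7, 23.2 and 28.6 CPM in labelled WT and 3.51, 6.71 and 1.75 CPM in labelled Mll5+/-. Plpp3 was likewise lower without overlap, while of the 9 astrocyte markers 4 had log2 fold changes below 0 and 5 above. Those of oligodendrocytes (6 of 10 listed) ran from 140.3 to 185 and from 98.2 to 135 CPM, with Mog at 0 counts in labelled WT. Of the 9 markers of B and plasma cells, which carry a large secretory ER, 2 were listed, and they summed to at most 90.6 CPM.

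Some promoters of these genes hold a known sequence of the unfolded protein response. The ER stress element, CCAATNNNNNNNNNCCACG on either strand, is the site at which the factor NF-Y and cleaved ATF6 are known to bind. RefSeq promoter sequences on GRCm38.p6, from 250 bases before to 50 bases after the annotated start, matched 30 of the 35 genes. Atf6, Derl1, Manf, Hyou1 and Ppp1r15b had no entry. The element was in 8 of the 30 (26.7%) and in 37 of 27025 genes of the promoter table (0.137%). Since the list was chosen as genes of this response, the higher share is a description and no independent finding. The 9 sites of these 8 genes follow, each read in the direction of the motif, with the defining CCAAT and CCACG in capitals. They are shown because Hspa5, Hsp90b1 and Canx, whose levels after TMM scaling did not overlap between the genotypes, hold one. Pdia3 and Eif2ak3, whose levels also did not overlap, had no match to the element in this window.

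Hspa5: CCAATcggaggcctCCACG
Calr: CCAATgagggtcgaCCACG
Hsp90b1: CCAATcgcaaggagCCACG
Hsp90b1: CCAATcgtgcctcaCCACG
Canx: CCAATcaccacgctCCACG
Pdia6: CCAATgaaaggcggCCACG
Dnajc3: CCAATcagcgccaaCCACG
Creld2: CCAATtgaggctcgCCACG
Syvn1: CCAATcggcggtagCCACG

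Hsp90b1 held both of its sites within 1 promoter, in opposite orientation. A related element, ATTGGNCCACG, was in 2 of the 30 (6.67%) and in 0.0444% of all genes with a promoter. Its 2 sites have ATTGG and CCACG in capitals.

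Herpud1: ATTGGgCCACG
Dnajb11: ATTGGcCCACG

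The full stretches before the start are shown for Hspa5, Hsp90b1 and Canx. These are the 3 genes with an ER stress element whose levels, after TMM scaling, did not overlap between the genotypes. They are chr2:34771840-34772089 (plus strand), chr10:86705445-86705694 (minus strand) and chr11:50325674-50325923 (minus strand), on GRCm38.p6 and read in the direction of the gene, with each ER stress element in capitals. One of those of Hsp90b1 is on the opposite strand and so starts with CGTGG.

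Hspa5: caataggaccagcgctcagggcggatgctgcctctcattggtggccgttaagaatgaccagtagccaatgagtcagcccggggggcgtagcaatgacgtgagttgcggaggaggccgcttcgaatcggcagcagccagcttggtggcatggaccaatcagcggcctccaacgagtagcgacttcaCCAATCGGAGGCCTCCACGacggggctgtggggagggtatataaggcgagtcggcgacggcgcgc
Hsp90b1: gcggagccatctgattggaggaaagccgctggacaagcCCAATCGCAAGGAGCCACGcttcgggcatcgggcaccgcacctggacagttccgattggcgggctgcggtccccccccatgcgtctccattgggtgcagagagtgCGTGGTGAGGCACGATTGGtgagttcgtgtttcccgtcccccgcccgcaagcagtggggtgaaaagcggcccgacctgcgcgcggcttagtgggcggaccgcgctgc
Canx: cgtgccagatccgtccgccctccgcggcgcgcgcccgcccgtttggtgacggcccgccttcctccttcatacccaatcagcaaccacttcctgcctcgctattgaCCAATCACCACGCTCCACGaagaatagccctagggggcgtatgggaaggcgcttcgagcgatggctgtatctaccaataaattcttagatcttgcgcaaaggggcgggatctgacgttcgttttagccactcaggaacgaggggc

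The first base of the element lies 65 bases before the start in Hspa5, 145 in Canx, and 212 and 107 in Hsp90b1. The CCAAT box alone, which is part of the ER stress element and on the opposite strand of ATTGGNCCACG, was in 24 of the 30 (80%) and in 41.1% of all genes with a promoter. The core of the XBP1 site, TGACGTGG, was in 0 of the 30 and in 0.714% of all genes with a promoter. The composite element of C/EBP and ATF factors, TGATGNAA, was in Herpud1 and Trib3 (6.67% of the 30, against 4.51% of all). Both ER stress elements end in CCACG and the XBP1 core begins with it on the opposite strand, so these 3 motifs can overlap. A match is a description of letters in this window only.

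No gene of the list passed the test between genotypes. In edgeR's quasi-likelihood test 0 of 34 had an adjusted p under 0.05, as had 0% of the 10832 genes tested, and the smallest adjusted p among the 34 was 0.9995. At an unadjusted p under 0.05 there was 1 gene, Pdia3, or 2.94% of the 34, where 2.88% of all genes tested met the same level (1.36% higher and 1.52% lower in labelled Mll5+/-). DESeq2 gave no p-value for Canx, Sel1l and Ern1 and called 0 of the others, where it called 0.260% of the genes it tested. It had 0 at an unadjusted p under 0.05, against 4.87% of all. The limma-voom fit, which weights libraries, called 0 of the 34 and 0% of all genes. It had 5 of the 34 (14.7%) at an unadjusted p under 0.05, Canx, Sel1l, Pdia3, Eif2ak3 and Dnajc3, against 4.31% of all genes tested. Their adjusted p in limma-voom was 0.935 or more. Of the 34, 22 had log2 fold changes below 0 (64.7%), where 48.2% of all genes tested did. The median log2 fold change, labelled Mll5+/- minus labelled WT, was -0.27 with Canx and -0.26 without it, beside 0.02 for all genes tested. In 5 of the 34 (14.7%) the levels of the genotypes did not overlap, where 9.32% of all genes tested did not overlap (4.68% higher and 4.64% lower). These were Hspa5, Hsp90b1, Pdia3 and Canx, lower in all 3 labelled Mll5+/- libraries, and Eif2ak3, higher in all 3. Scaled by total counts without TMM, Hspa5 overlapped and the count was 4 of the 34. In such bulk samples, fewer cells of a type and less RNA per cell cannot be told apart. The summed microglia markers given above were also without overlap and in the same direction as the 4 lower genes, as were those of oligodendrocytes. So were Gja1 and Plpp3 among the 9 astrocyte markers, whose sum overlapped. The part of all these markers in the results was not tested.

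**Figure D1:**
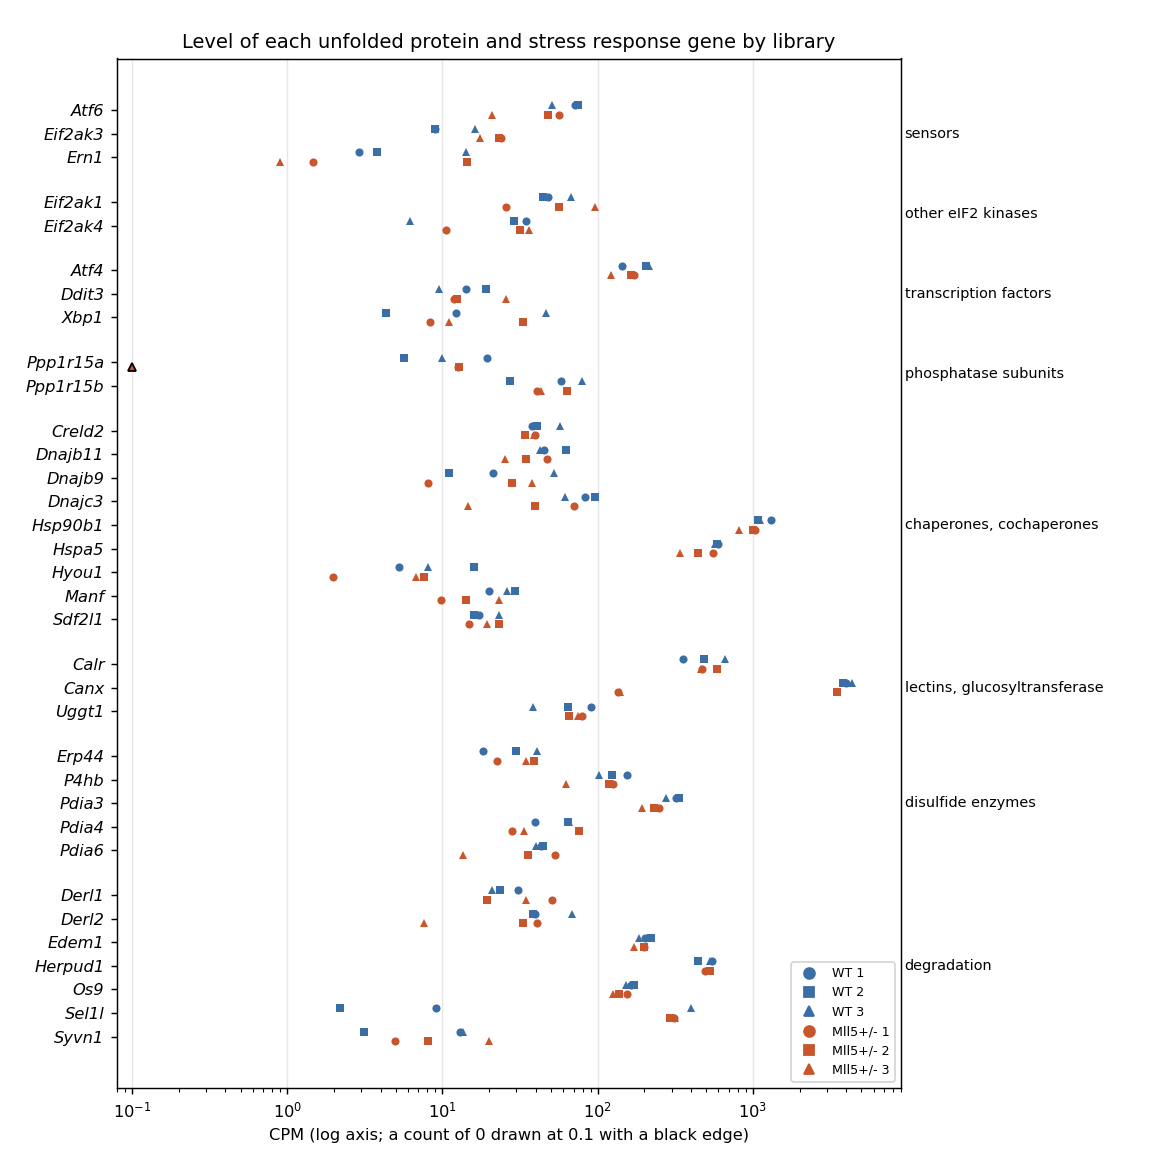
Level of each of the 34 genes in CPM (log axis) in each library, by role. Blue symbols are labelled WT and orange symbols labelled Mll5+/- libraries, and the shape gives the replicate number, which pairs nothing. In most genes the genotypes are mixed, Canx has 2 labelled Mll5+/- libraries far below the other 4, and Sel1l has 2 labelled WT libraries far below the other 4.

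**Figure D2:**
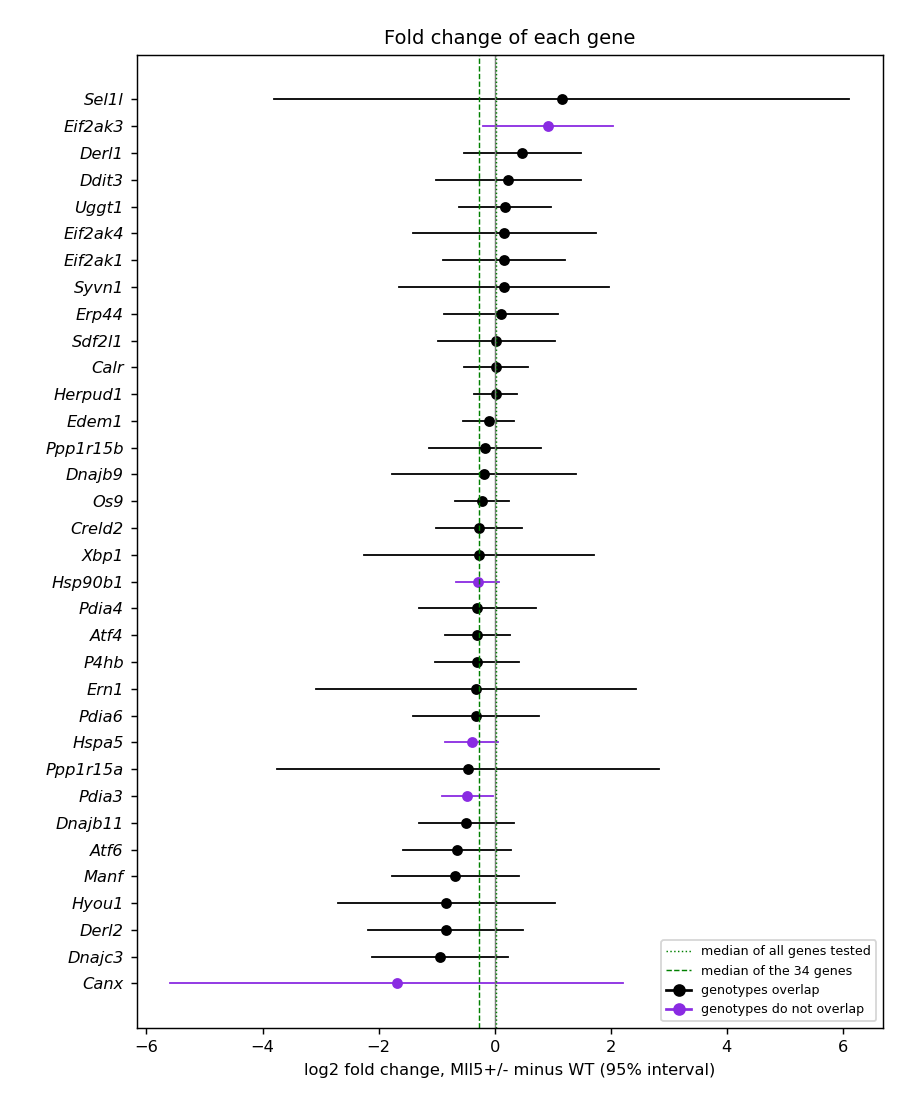
Log2 fold change, labelled Mll5+/- minus labelled WT, of each gene with its 95% interval from edgeR, ordered by size. Purple marks the 5 genes whose genotypes did not overlap, and the interval of Pdia3 is the 1 interval that leaves out 0.

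Among the sensors, the 3 genes differed in direction. Eif2ak3 (chr6:70821499-70882229, mm39), which encodes PERK, was at 8.95, 9.01 and 16.2 CPM in the labelled WT libraries and 23.8, 23.2 and 17.3 CPM in the labelled Mll5+/- libraries. Every labelled Mll5+/- library lay above the highest labelled WT library, by a small margin in replicate 3 of each. Its means were 11.4 ± 4.17 CPM against 21.4 ± 3.56 CPM (WT first; SD, n = 3 each), with a log2 fold change of 0.91 ± 0.493 (SE, unadjusted p = 0.0977, edgeR). Its direction held in all 12 alternatives, with unadjusted p-values from 0.0310 to 0.233 (edgeR, DESeq2 or limma-voom). Atf6, on chr1:170532243-170695340, was at 71.6, 74.9 and 51.004 CPM in the labelled WT libraries and 56.7, 48.2 and 20.9 CPM in the labelled Mll5+/- libraries. The ranges of Atf6 overlapped, and Mll5+/- replicate 3 was the lowest library. Its log2 fold change was -0.65 ± 0.410 (SE, unadjusted p = 0.149, edgeR). Ern1, which encodes IRE1 and had the lowest level per length of the list, was at 2.88, 3.77 and 14.2 CPM in the labelled WT libraries and 1.46, 14.4 and 0.898 CPM in the labelled Mll5+/- libraries. WT replicate 3 and Mll5+/- replicate 2 held the high values, and the log2 fold change was -0.32 ± 1.22 (SE, unadjusted p = 0.800, edgeR). The sensors thus had no common direction.

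The remaining eIF2 kinases of the list overlapped as well. Eif2ak1, the heme-regulated kinase HRI, was at 47.6, 44.4 and 66.9 CPM in the labelled WT libraries and 25.6, 56.5 and 95.9 CPM in the labelled Mll5+/- libraries, with the lowest and the highest library both labelled Mll5+/-. Eif2ak4, the amino acid sensor GCN2, was at 34.3, 28.98 and 6.18 CPM in the labelled WT libraries and 10.5, 31.6 and 35.96 CPM in the labelled Mll5+/- libraries. For Eif2ak4, WT replicate 3 and Mll5+/- replicate 1 were low and the other 4 libraries lay close together. Log2 fold changes were 0.16 (SE 0.465) for Eif2ak1 and 0.17 (SE 0.692) for Eif2ak4.

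The transcription factor genes showed no difference beyond the spread between libraries. Atf4, the factor where the eIF2 kinases meet, was at 144, 204 and 213 CPM in the labelled WT libraries and 171, 163 and 122 CPM in the labelled Mll5+/- libraries. Its ranges overlapped, with Mll5+/- replicate 3 lowest, and its log2 fold change was -0.30 ± 0.245 (SE, unadjusted p = 0.251, edgeR). The 95% interval ran from -0.86 to 0.26, so a log2 change of 1 in either direction lies outside it. Ddit3, which encodes the pro-apoptotic factor CHOP, was at 14.1, 19.05 and 9.44 CPM in the labelled WT libraries and 11.95, 12.4 and 25.7 CPM in the labelled Mll5+/- libraries. WT replicate 3 was the lowest and Mll5+/- replicate 3 the highest library, and the log2 fold change was 0.23 ± 0.550 (SE, unadjusted p = 0.683, edgeR). Xbp1 was at 12.3, 4.31 and 46.8 CPM in the labelled WT libraries and 8.36, 32.97 and 11.1 CPM in the labelled Mll5+/- libraries. The libraries with high Xbp1, WT replicate 3 and Mll5+/- replicate 2, were also those with high Ern1. Within labelled WT, the highest Xbp1 value was 10.9 times the lowest, and the log2 fold change was -0.27 ± 0.874 (SE, unadjusted p = 0.760, edgeR). The count covers spliced and unspliced Xbp1 mRNA together.

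Both genes for regulatory subunits of the phosphatase that reverses eIF2 phosphorylation varied within genotypes. Ppp1r15a, the stress-induced subunit GADD34, was at 19.4, 5.62 and 9.99 CPM in the labelled WT libraries and 12.6, 12.8 and 0 CPM in the labelled Mll5+/- libraries. It had 0 counts in Mll5+/- replicate 3, which at that depth allows a level of up to 0.142 CPM, while the other 5 libraries held 146 to 464 counts. Ppp1r15b, the constitutive subunit, was at 58.03, 27.3 and 79.7 CPM in the labelled WT libraries and 40.5, 63.1 and 43.2 CPM in the labelled Mll5+/- libraries. Log2 fold changes were -0.46 (SE 1.43) and -0.17 (SE 0.426).

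Chaperones and their helpers mostly had values of 1 sign. Of 9 genes, 8 had log2 fold changes below 0, with a median of -0.40, and none passed the test. Hspa5 (chr2:34661982-34667559, mm39) encodes BiP, the main Hsp70 chaperone of the ER, which also holds the sensors inactive. It was at 600.0, 591 and 567 CPM in the labelled WT libraries and 553, 442 and 341 CPM in the labelled Mll5+/- libraries. The labelled WT libraries lay within a factor of 1.06 of each other, and all 3 labelled Mll5+/- libraries lay below them. This separation depended on TMM scaling. By total counts alone, WT replicate 3 fell below Mll5+/- replicate 1, and the genotypes overlapped. Hspa5 means were 586 ± 17.2 CPM against 445 ± 106 CPM (WT first; SD, n = 3 each), with a log2 fold change of -0.40 ± 0.202 (SE, unadjusted p = 0.0827, edgeR) and a 95% interval from -0.85 to 0.06. Hsp90b1 (chr10:86526704-86541373, mm39) encodes GRP94, the Hsp90 of the ER, needed among others for Toll-like receptors and integrins. It was at 1303, 1079.7 and 1105 CPM in the labelled WT libraries and 1030.3, 997 and 818 CPM in the labelled Mll5+/- libraries. The gap between the genotypes was narrow, and Mll5+/- replicate 3 was again lowest. Hsp90b1 means were 1163 ± 122 CPM against 949 ± 114 CPM (WT first; SD, n = 3 each), with a log2 fold change of -0.29 ± 0.161 (SE, unadjusted p = 0.103, edgeR).

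The helper Dnajc3, the cochaperone p58IPK that also restrains PERK, had the lowest log2 fold change of the group, -0.95 ± 0.516 (SE, unadjusted p = 0.101, edgeR). It was at 82.4, 96.6 and 61.3 CPM in the labelled WT libraries and 70.5, 39.6 and 14.6 CPM in the labelled Mll5+/- libraries, so that only Mll5+/- replicate 1 reached into the labelled WT range. Dnajb11 (ERdj3), another cochaperone of BiP, was at 45.2, 62.5 and 42.9 CPM in the labelled WT libraries and 47.3, 34.8 and 25.4 CPM in the labelled Mll5+/- libraries, with a log2 fold change of -0.49 (SE 0.360). Both cochaperones shared with Hspa5 the order of the labelled Mll5+/- libraries, replicate 1 highest and replicate 3 lowest. Dnajb9 (ERdj4) was at 21.2, 11.01 and 52.1 CPM in the labelled WT libraries and 8.13, 28.3 and 37.8 CPM in the labelled Mll5+/- libraries and did not follow that order.

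Hyou1 (GRP170), the exchange factor of BiP, was at 5.23, 15.9 and 8.01 CPM in the labelled WT libraries and 1.97, 7.62 and 6.71 CPM in the labelled Mll5+/- libraries. Manf, a secreted ER protein that binds BiP, was at 20.03, 29.2 and 25.95 CPM in the labelled WT libraries and 9.82, 14.1 and 23.1 CPM in the labelled Mll5+/- libraries. Both helpers were lowest in Mll5+/- replicate 1. Sdf2l1, part of a chaperone complex with ERdj3, was at 17.3, 16.01 and 23.1 CPM in the labelled WT libraries and 14.9, 23.3 and 19.3 CPM in the labelled Mll5+/- libraries. Creld2, a disulfide-linked stress protein, was at 37.7, 40.6 and 57.1 CPM in the labelled WT libraries and 39.6, 33.99 and 39.1 CPM in the labelled Mll5+/- libraries. All 4 overlapped, with log2 fold changes of -0.84 (SE 0.823), -0.68 (SE 0.479), 0.03 (SE 0.443) and -0.26 (SE 0.327).

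The lectin chaperones parted. Canx (chr11:50184788-50216500, mm39) encodes calnexin, the membrane-bound lectin that holds glycoproteins during folding. It was at 3982, 3809.8 and 4327 CPM in the labelled WT libraries and at 136, 3476 and 140.2 CPM in the labelled Mll5+/- libraries. Replicates 1 and 3 of labelled Mll5+/- were far below the other 4 libraries, while replicate 2 was close to labelled WT. The deposited counts were 95234, 98997 and 124698 and 3448, 99013 and 2966 in the same order, so depth does not limit these values. The highest labelled Mll5+/- library was 25.6 times the lowest, against 1.14 times within labelled WT. The log2 fold change was -1.69 ± 1.47 (SE, unadjusted p = 0.308, edgeR), with a 95% interval from -5.59 to 2.20. Without Mll5+/- replicate 2 it was -4.89 (edgeR adjusted p = 5.69e-05), and Canx was then the 1 gene called among 11177. This fit, of the 6 that leave out 1 library each, is given because the Canx value of that library differs, so it is no independent support. DESeq2 gave Canx no p-value.

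The listed genes on either side of Canx showed no gap of that size. Maml1, on one side, was at 16.6, 19.4 and 6.87 CPM in labelled WT and 4.61, 8.25 and 4.58 CPM in labelled Mll5+/-, and Hnrnph1, on the other, at 243, 255 and 225 and 245, 289 and 233 CPM. Hnrnph1 was even over all 6 libraries, and Maml1, at low levels, was lowest in the same 2 libraries as Canx. The gap of Maml1 between those 2 and Mll5+/- replicate 2 was far smaller than that of Canx. These neighbours were looked at after the values of Canx had been seen.

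**Figure D3:**
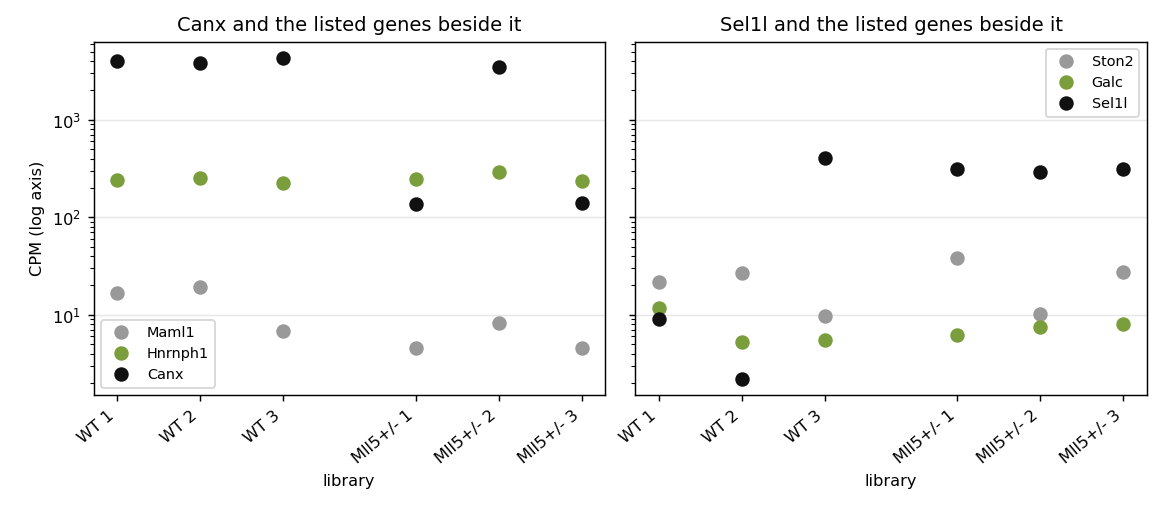
CPM (log axis) of Canx, of Sel1l and of the next listed gene on either side of each, in every library. Galc lies far from Sel1l on the chromosome. Canx is at 136 and 140.2 CPM in 2 labelled Mll5+/- libraries and at 3476 CPM or more elsewhere, and Sel1l is below 10 CPM in 2 labelled WT libraries and at 292 CPM or more elsewhere, while no neighbour has a gap of that size.

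Calr, calreticulin, the soluble partner of calnexin and also a member of the complex that loads peptides on MHC class I, was at 356, 483 and 661 CPM in the labelled WT libraries and 473, 587 and 463 CPM in the labelled Mll5+/- libraries. All labelled Mll5+/- libraries lay within the labelled WT range. Its log2 fold change was 0.02 ± 0.241 (SE, unadjusted p = 0.930, edgeR), with a 95% interval from -0.52 to 0.57. Calr was not higher in the 2 libraries with little Canx than in Mll5+/- replicate 2. Uggt1, the glucosyltransferase that sends misfolded glycoproteins back to the lectins, was at 91.1, 64.2 and 38.2 CPM in the labelled WT libraries and 79.4, 65.9 and 74.4 CPM in the labelled Mll5+/- libraries, with a log2 fold change of 0.18 (SE 0.351).

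Of the 5 disulfide enzymes, 4 had log2 fold changes below 0 (median -0.31). Pdia3 (chr2:121244256-121269168, mm39) encodes ERp57, the enzyme that works with calnexin and calreticulin. It was at 321, 336 and 276 CPM in the labelled WT libraries and 249.5, 231 and 192 CPM in the labelled Mll5+/- libraries. The genotypes did not overlap, and the means were 311 ± 31.4 CPM against 224 ± 29.1 CPM (WT first; SD, n = 3 each). The log2 fold change was -0.47 ± 0.193 (SE, unadjusted p = 0.0383, edgeR), with a 95% interval from -0.91 to -0.03 (edgeR adjusted p = 0.9995). Its sign held in all 12 alternatives, while the unadjusted p ran from 0.0273 to 0.113. P4hb, protein disulfide isomerase itself, was at 155, 123 and 102 CPM in the labelled WT libraries and 125, 119 and 62.9 CPM in the labelled Mll5+/- libraries. Pdia6 was at 43.3, 44.3 and 40.2 CPM in the labelled WT libraries and 53.1, 35.7 and 13.7 CPM in the labelled Mll5+/- libraries. For both, Mll5+/- replicate 3 lay below all other libraries and the rest overlapped.

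Pdia4 (ERp72) was at 39.5, 64.3 and 65.02 CPM in the labelled WT libraries and 27.97, 75.9 and 33.6 CPM in the labelled Mll5+/- libraries, with its highest value in Mll5+/- replicate 2. Erp44, which retains secretory cargo by mixed disulfides, was at 18.2, 29.8 and 40.9 CPM in the labelled WT libraries and 22.5, 39.1 and 34.5 CPM in the labelled Mll5+/- libraries. Log2 fold changes were -0.31 (SE 0.317) for P4hb, -0.32 (SE 0.480) for Pdia6, -0.30 (SE 0.441) for Pdia4 and 0.11 (SE 0.431) for Erp44. None of these 4 had an unadjusted p under 0.05 in edgeR.

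Genes of ER-associated degradation did not lean to 1 side, with 3 of 7 below 0 and a median of 0.02. Herpud1, a stress-induced scaffold of the degradation complex, was at 542, 443 and 531 CPM in the labelled WT libraries and 492, 534 and 505 CPM in the labelled Mll5+/- libraries. These were among the most even levels of the list, and the log2 fold change was 0.02 ± 0.163 (SE, unadjusted p = 0.929, edgeR) with a 95% interval from -0.36 to 0.39. Edem1, which recognises glycoproteins for removal, was at 203, 219.8 and 186 CPM in the labelled WT libraries and 199, 198 and 172 CPM in the labelled Mll5+/- libraries. Os9, a lectin of the same step, was at 164, 171 and 151 CPM in the labelled WT libraries and 154, 137 and 126 CPM in the labelled Mll5+/- libraries. Both also varied little, with log2 fold changes of -0.10 (SE 0.193) and -0.22 (SE 0.206).

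Sel1l (chr12:91772817-91815931, mm39) encodes the adaptor of the ubiquitin ligase HRD1. It was at 9.03, 2.19 and 403 CPM in the labelled WT libraries and 313, 292 and 316 CPM in the labelled Mll5+/- libraries. WT replicates 1 and 2 were far below the other 4 libraries, and WT replicate 3 was the highest of all. Within labelled WT the highest value was 183 times the lowest, against 1.08 times within labelled Mll5+/-. The log2 fold change of 1.15 ± 1.88 (SE, unadjusted p = 0.568, edgeR) therefore had a wide interval, and without WT replicate 3 it was 5.77 (edgeR adjusted p = 0.163). Each library was left out in turn, and this fit is given because the Sel1l value of that library differs from the other WT values. The next listed genes on either side of Sel1l, Ston2 (21.7, 26.96 and 9.78 CPM in labelled WT, 37.9, 10.2 and 27.6 CPM in labelled Mll5+/-) and Galc (11.7, 5.31 and 5.48 and 6.19, 7.44 and 8.03 CPM), did not shift with it. Galc starts far from Sel1l, at chr12:98168553, so it does not show the levels close to Sel1l on that side.

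Syvn1, the ligase HRD1 itself, was at 12.9, 3.12 and 13.6 CPM in the labelled WT libraries and 4.93, 8.04 and 20.04 CPM in the labelled Mll5+/- libraries. WT replicate 2 was lowest for both the ligase and its adaptor, while WT replicate 1 was among the higher libraries for Syvn1. Derl1, a channel component, was at 30.8, 23.4 and 20.9 CPM in the labelled WT libraries and 50.5, 19.3 and 34.5 CPM in the labelled Mll5+/- libraries, and its relative Derl2 at 39.5, 38.2 and 67.9 CPM in the labelled WT libraries and 40.6, 32.9 and 7.56 CPM in the labelled Mll5+/- libraries. Derl1 and Derl2 had log2 fold changes of opposite sign, 0.47 (SE 0.445) and -0.85 (SE 0.586), and Syvn1 had 0.15 (SE 0.797). Derl2 was lowest in Mll5+/- replicate 3, the library that was lowest for 14 of the 34 genes (41.2%) and for 21.9% of all genes tested.

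A mean over the genes was formed for each library, as the average deviation of log2 CPM from each gene's mean over the 6 libraries. With all 34 genes it was 0.07, -0.08 and 0.39 in labelled WT and -0.21, 0.27 and -0.44 in labelled Mll5+/-. Without Canx it was 0.03, -0.13 and 0.35 and -0.12, 0.23 and -0.36. The genotypes overlapped either way, with Mll5+/- replicate 2 above WT replicates 1 and 2. Without Canx, Mll5+/- replicate 1 was also just above WT replicate 2. The difference between the genotype means was -0.25 with Canx and -0.16 without it, while the SD between libraries of a genotype was 0.301 on average. With Sel1l left out as well, the difference was -0.29. Mll5+/- replicate 3 was the lowest library on each of these means, and without it the difference was -0.10 with Canx and -0.02 without Canx. Without WT replicate 3 the same values were -0.12 and -0.03. Mll5+/- replicate 3 also had the fewest counts, 21075570, the fewest genes with a count, 10487, and a mean deviation over all genes tested of -0.18. The part of these in the result was not tested.

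By role, the mean of the 9 chaperones and cochaperones did not overlap between the genotypes, at 0.10, 0.27 and 0.37 in labelled WT and -0.41, -0.07 and -0.26 in labelled Mll5+/-. Disulfide enzymes stood at 0.02, 0.25 and 0.21 and -0.10, 0.20 and -0.58, with Mll5+/- replicate 2 inside the labelled WT range. Degradation genes stood at -0.26, -0.92 and 0.52 and 0.34, 0.18 and 0.14, and at 0.21, -0.22 and 0.22 and 0.07, -0.11 and -0.17 without Sel1l, so the value of WT replicate 2 rested largely on Sel1l. The 3 genes of the lectin group, Canx, Calr and the glucosyltransferase gene Uggt1, stood at 0.54, 0.50 and 0.46 and -1.01, 0.56 and -1.04. Without Canx, Calr and Uggt1 stood at -0.01, -0.04 and -0.19 and 0.09, 0.12 and 0.03, which did not overlap and had the opposite direction to the chaperones. Since the groups hold 2 to 9 genes and were described with their values known, these means are given without a test.

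**Figure D4:**
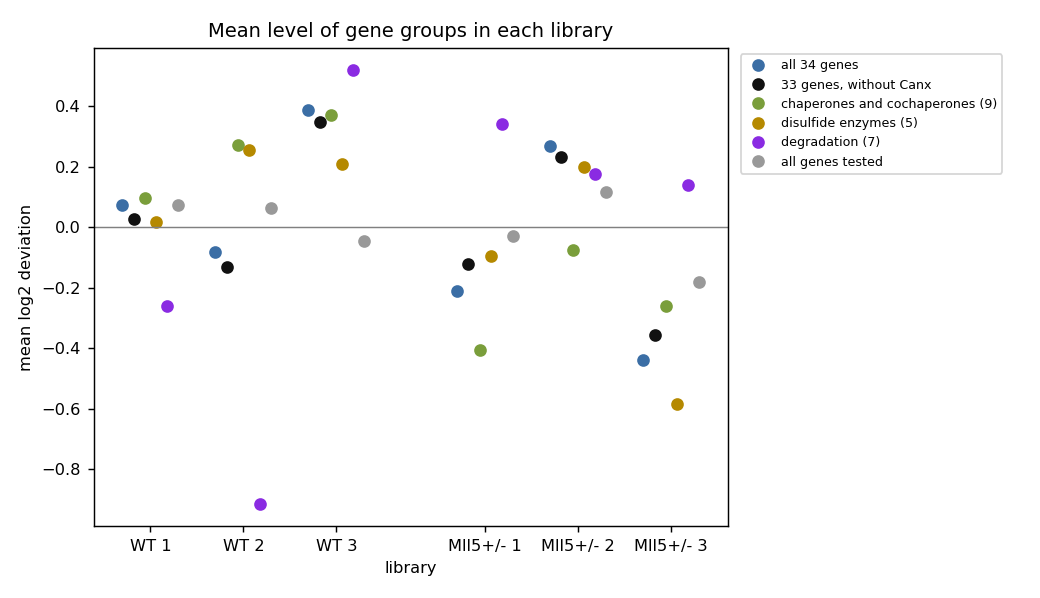
Mean log2 deviation from the 6-library mean, per library, for all 34 genes, for 33 without Canx, for 3 role groups and for all genes tested. The chaperone points are above 0 in the 3 labelled WT libraries and below 0 in the 3 labelled Mll5+/- libraries, while the mean of all 34 genes overlaps between the genotypes.

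Levels differed widely among the genes when divided by exon length (CPM per kb of the union of exons in GENCODE M21). Canx had the highest median over the 6 libraries, 850.2 CPM per kb, but it spanned 31.7 to 1009.7. Hsp90b1 followed with 373 (289.7 to 461), then Herpud1 with 265, Calr with 219 and Hspa5 with 149 CPM per kb. Herpud1 and Calr overlapped in their ranges, while the lowest Calr library (163) was just above the highest Hspa5 library (159.8). At the other end, Ern1 had a median of 0.408 and Hyou1 of 1.501 CPM per kb. Among the sensors the order was Atf6, Eif2ak3 and Ern1, with medians of 7.43, 3.46 and 0.408, and Atf6 and Eif2ak3 overlapped.

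Wide gaps between libraries of 1 genotype, as in Canx and Sel1l, also occurred outside the list. A highest value at least 10 times the lowest within a genotype was seen in 5 of the 34 genes (14.7%), Canx, Sel1l, Xbp1, Ern1 and Ppp1r15a, and in 27.7% of all genes tested, of which 2392 of 3005 had a mean under 10 CPM. At least 16 times was reached by 4 of the 34 (11.8%) and by 23.2% of all genes tested. Among the 138 genes with a mean of at least 1000 CPM, 8 (5.80%) had a 10-fold gap, 1 of them Canx. Among the 763 genes with a mean from 200 to 1000 CPM, 39 (5.11%) did, 1 of them Sel1l. The median gap at those levels was 1.47 and 1.52 times.

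The wider pathway was read from 7 further lists, which hold 201 tested genes. In edgeR 0 of the 201 passed, and 6 had an unadjusted p under 0.05 (2.99%, against 2.88% of all genes tested), 3 with positive and 3 with negative log2 fold changes. The median over the 201 was 0.01, and 99 of the 201 were below 0. The 35 genes of the translocon, signal peptidase and oligosaccharyltransferase had a median of -0.16, with 21 below 0 and 0 at an unadjusted p under 0.05. Their most abundant members, Ssr1 and Tram1, were at 1880.2, 1642 and 1804 CPM in the labelled WT libraries and 1655, 1633 and 1311 CPM in the labelled Mll5+/- libraries, and at 843, 778 and 932 CPM in the labelled WT libraries and 956, 986 and 575 CPM in the labelled Mll5+/- libraries, in that order.

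Of 36 tested folding enzymes outside the list (median 0.01), 1 had an unadjusted p under 0.05. This was Ppib, cyclophilin B, a prolyl isomerase of the ER, at 32.2, 36.3 and 52.9 CPM in the labelled WT libraries and 16.2, 19.9 and 15.1 CPM in the labelled Mll5+/- libraries. The genotypes did not overlap, and the log2 fold change was -1.24 ± 0.388 (SE, unadjusted p = 0.0111, edgeR). Over its 12 alternatives the unadjusted p ran from 0.00395 to 0.0489. The most abundant were Tmx4 and Qsox1, and Qsox1, a sulfhydryl oxidase, was at 47.5, 105 and 112 CPM in the labelled WT libraries and 148, 118 and 119 CPM in the labelled Mll5+/- libraries. Of 36 tested degradation genes outside the list (median 0.10), 0 had an unadjusted p under 0.05, and Yod1 and Ubxn4 were the most abundant, with log2 fold changes of 0.09 (SE 0.156) and -0.09 (SE 0.190).

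Downstream of eIF2, 33 tested targets of ATF4 and CHOP had a median of -0.10, with 17 below 0 and 1 at an unadjusted p under 0.05. That gene, Iars, encodes isoleucyl-tRNA synthetase and was at 23.1, 17.7 and 37.4 CPM in the labelled WT libraries and 15.8, 9.34 and 6.24 CPM in the labelled Mll5+/- libraries, with a log2 fold change of -1.32 ± 0.547 (SE, unadjusted p = 0.0400, edgeR). The tRNA synthetase genes Tars and Yars were also without overlap and lower in labelled Mll5+/-. In all, 3 of the 33 (9.09%) did not overlap, close to the 9.32% of all genes tested (4.64% lower). Cebpg and Eprs, the most abundant targets, had log2 fold changes of -0.19 (SE 0.177) and -0.44 (SE 0.257). Of the 18 genes of eIF2, eIF2B and their partners (median 0.04), Eif2a, an alternative initiation factor, was at 35.8, 28.7 and 26.3 CPM in the labelled WT libraries and 37.9, 58.9 and 71.2 CPM in the labelled Mll5+/- libraries, with a log2 fold change of 0.89 ± 0.356 (SE, unadjusted p = 0.0350, edgeR). Ppp1cb and Impact were the most abundant of these 18 and overlapped.

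Regulators and effectors beyond the sensors (30 tested, median 0.04) held 3 genes with an unadjusted p under 0.05 in edgeR (10%, against 2.88% of all genes tested). Without overlap were 3 higher and 2 lower genes (16.7%, against 9.32% of all genes tested). Bcl2l11, which encodes the pro-apoptotic protein BIM, a known target of CHOP, was at 68.2, 75.9 and 78.2 CPM in the labelled WT libraries and 34.95, 42.3 and 50.3 CPM in the labelled Mll5+/- libraries, with a log2 fold change of -0.80 ± 0.287 (SE, unadjusted p = 0.0216, edgeR). Bloc1s1, whose mRNA is the classical substrate that IRE1 cuts for decay, was at 1.55, 1.08 and 1.32 CPM in the labelled WT libraries and 5.602, 3.51 and 13.7 CPM in the labelled Mll5+/- libraries, with a log2 fold change of 2.53 ± 1.07 (SE, unadjusted p = 0.0427, edgeR). Wfs1, an ER membrane protein gene, had 0 counts in each labelled WT library and 13, 20 and 34 counts in labelled Mll5+/-, and no fold is given. Nfe2l2 and Itpr2, the most abundant of these, overlapped. Of the 14 tested cytosolic heat shock genes (median 0.15), 0 had an unadjusted p under 0.05, and Hsp90ab1 and Dnaja1, the most abundant, had log2 fold changes of 0.07 (SE 0.170) and -0.34 (SE 0.225).

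Genes with the ER stress element were read inside and outside the list. Of the 8 listed genes that hold it, 6 had log2 fold changes below 0, Hspa5, Hsp90b1, Canx, Pdia6, Dnajc3 and Creld2, and Calr and Syvn1 had values above 0. Their median was -0.31, and 3 of the 8 had genotypes that did not overlap, all lower in labelled Mll5+/-, where 4.64% of all genes tested were. Of these 3, Hspa5 overlapped without TMM scaling, and Canx was at 3476 CPM in Mll5+/- replicate 2, close to labelled WT. Pdia3 and Eif2ak3, the other listed genes without overlap, do not hold the element. The list was chosen with earlier results of these data known, so this share is a description only. Outside the list, 10 tested genes hold the element, 6 of them below 0 and 4 above, where 48.2% of all genes tested were below 0. Their median was -0.61, and 0 of the 10 were without overlap. Of those 10, 8 had means under 20 CPM in both genotypes. Calr4, Derl3, Spats2l and Xlr3b, all below 0, had means of at most 3.74 CPM. Their log2 fold changes were -0.85 (SE 2.63), -0.82 (SE 1.97), -1.52 (SE 2.32) and -1.09 (SE 2.37), so the median of the 10 rests largely on imprecise values. Hnrnpa3, which encodes an RNA-binding protein, had 79.4 and 42.7 CPM on average in labelled WT and labelled Mll5+/-, a log2 fold change of -0.90 with overlapping libraries. Ero1b, which encodes an oxidase for disulfide enzymes, had 81.3 and 86.5 CPM. Alg12, a mannosyltransferase of the ER, had 15.5 and 19.3 CPM. None of the 18 genes had an unadjusted p under 0.05 in edgeR. Of the 8 tested genes with the related element ATTGGNCCACG, 5 were below 0 and 3 above, with a median of -0.07. Without overlap, 0 of the 8 were lower and 1 was higher, where 4.68% of all genes tested were higher. That gene, Rcl1, had means of 0.505 and 2.97 CPM in labelled WT and labelled Mll5+/-. In edgeR 0 of the 8 had an unadjusted p under 0.05.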

How the data were processed

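Whole-number counts for each gene symbol, in a single table, are what the authors deposited, with gene coordinates on mm39 per the labels. The submitters' processing notes name FastQC, STAR, StringTie and DESeq2. Versions, the counting step and strand use were not given in the sources read, so reads of overlapping genes or close copies may be split. Columns were matched to samples by the number in each title.

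From these counts, filterByExpr (minimum count 10, minimum total 15) kept 10832 genes, which were scaled by TMM. Genotypes were compared, Mll5+/- minus WT as labelled, with edgeR 4.0.16 (quasi-likelihood, robust; limma 3.58.1, R 4.3.3), two-sided, and p-values were adjusted over all genes by Benjamini-Hochberg. Log2 CPM used a prior count of 2. Each SE is the log2 fold change divided by the square root of its F. Alternatives were DESeq2 1.42.0, limma-voom, other scalings and filters, and leaving out each library.

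The members and lists were chosen with earlier results of these data known. All listed members are named. From wider lists, genes with unadjusted p under 0.05 and the 2 of highest mean CPM are named. Tars, Yars and the genes with a motif were named after their values were seen. Each edgeR p-value sets the difference between genotypes against the spread between these libraries, as estimated with information from all genes tested. Amplified reads are not independent molecules, so depth limits cover counting error only.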

Additional observations from a re-analysis of the deposited data

How the results depend on the processing

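Of the 34 genes, 19 kept the sign of their log2 fold change in all 12 alternatives, 16 below 0 and 3 above 0, among them Hspa5, Hsp90b1, Pdia3, Canx and Eif2ak3. Leaving out each library in turn, signs turned for these genes, whose log2 fold changes ran as follows: Calr -0.19 to 0.27, Pdia6 -0.80 to 0.047, Eif2ak1 -0.38 to 0.51, Eif2ak4 -0.29 to 0.56, Ern1 -2.57 to 0.75, Xbp1 -1.14 to 1.07, Ddit3 -0.23 to 0.48, Dnajb9 -0.64 to 0.62, Sdf2l1 -0.16 to 0.20, Herpud1 -0.087 to 0.055, Syvn1 -0.62 to 0.49, Ppp1r15a -0.90 to 0.11, Ppp1r15b -0.51 to 0.19, Uggt1 -0.088 to 0.51 and Erp44 -0.16 to 0.41. With limma-voom the values Eif2ak1 -0.12, Eif2ak4 -0.16, Xbp1 0.68, Ddit3 -0.11 and Ppp1r15b 0.18 had turned, and without a low-count filter Herpud1 had -0.0020. None of these 15 genes passed the threshold in any of these fits. The count of called genes was 0 to 1 over the left-out libraries, the 1 being Canx without Mll5+/- replicate 2. The count at an unadjusted p under 0.05 was 1, and it was 0 with DESeq2, 5 with limma-voom and 0 to 3 over the left-out libraries. It was 0 without WT replicate 1, WT replicate 2 or Mll5+/- replicate 3, and 3 without WT replicate 3 or Mll5+/- replicate 1. The count without overlap was 5, and it was 4 by total counts without TMM, where Hspa5 overlapped. With 1 library fewer it was 5 to 11, with 10 without WT replicate 1 or 3, 11 without Mll5+/- replicate 1 and 8 without Mll5+/- replicate 2. Fewer libraries make overlap less likely. The share of all genes tested is not given for the fits with 1 library left out. The counts without overlap and at an unadjusted p under 0.05 in those fits therefore cannot be read as a result about these genes. In the wider lists the count was 6, and 3 to 8 over the left-out libraries, 3 being without WT replicate 2. The number below 0 (19 to 27), the median log2 fold change (-0.35 to -0.11) and the mean deviation kept their direction in every alternative run. Alternatives added after the data were seen were the left-out libraries for overlap, deviation and wider lists, and the mean without Sel1l. The causes of these changes were not tested. No paired analysis was possible because the labels pair no libraries. With 3 libraries per genotype and a biological coefficient of variation of 80.4%, the number of libraries limits the precision of every value given, and at these depths 3 counts stand for at most 0.142 CPM.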
